A study of Caenorhabditis elegans with 2 samples.

Results

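The 32 genes described here encode subunits of the proteasome of the nematode Caenorhabditis elegans, out of 19973 protein-coding genes on the nuclear chromosomes. They were chosen by gene name. The core particle accounts for 14 of them, with 7 alpha subunits (pas-1 to pas-7) and 7 beta subunits (pbs-1 to pbs-7). The regulatory particle accounts for 18, with 6 subunits of the ATPase ring (rpt-1 to rpt-6) and 12 other subunits (the rpn genes). All 32 names matched a single protein-coding gene of the annotation.

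The measurement was chromatin immunoprecipitation and sequencing of the transcription factor HLH-30, with an anti-GFP antibody on late embryos of hermaphrodites, in 2 biological replicates that form a single group. The worms were strain OP433, in which the transgene wgIs433 supplies HLH-30 with GFP-FLAG at its C terminus on the background unc-119(tm4063) III. The sources used here do not say what drives the transgene or whether the native hlh-30 gene is intact. Whole embryos were used, so a peak does not tell in which cells the protein was bound. There was no second stage, strain or treatment, and no measurement of RNA.

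The proteasome degrades proteins marked with ubiquitin. Alpha subunits form the outer rings and the gate of the core particle, and beta subunits form its inner rings, where the protease sites lie. The ATPase ring unfolds substrates and feeds them into the core, and the other regulatory subunits bind ubiquitin chains, remove them or hold the particle together. HLH-30 belongs to the TFEB family of basic helix-loop-helix leucine zipper proteins, which bind the E-box CACGTG and are known for their role at autophagy and lysosome genes.

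Each gene was given a window that began 1000 bp before an annotated start of a coding transcript and ended 200 bp after it, and a summit inside the window counted as a peak of that gene. Of the proteasome genes, 7 of 32 had a peak in the authors' optimal list of 1959 peaks, 21.9% (exact 95% interval 9.28 to 40.0%), against 6.63% of all protein-coding genes. The 7 were pbs-1, rpt-2, rpn-3, rpn-9, rpn-11, rpn-12 and rpn-13. By role, 5 of 12 other regulatory subunits had a peak (41.7%, interval 15.2 to 72.3%), 1 of 6 ATPase subunits (16.7%, 0.421 to 64.1%) and 1 of 14 core subunits (7.14%, 0.181 to 33.9%). None of the 7 alpha subunits did, which allows a share of up to 41.0%. The intervals of the 3 classes overlap, they cover the counting of genes only, and no test compared the classes. With each replicate's own list shortened to its 1959 strongest peaks, 6 members had a peak in replicate 1, against 6.93% of all genes, and 6 in replicate 2, against 6.15%. The core count was then 0 in replicate 1 and 1 in replicate 2, the ATPase count was 2 in replicate 1 and 1 in replicate 2, and the count of other regulatory genes was 4 in each.

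**Figure D1:**
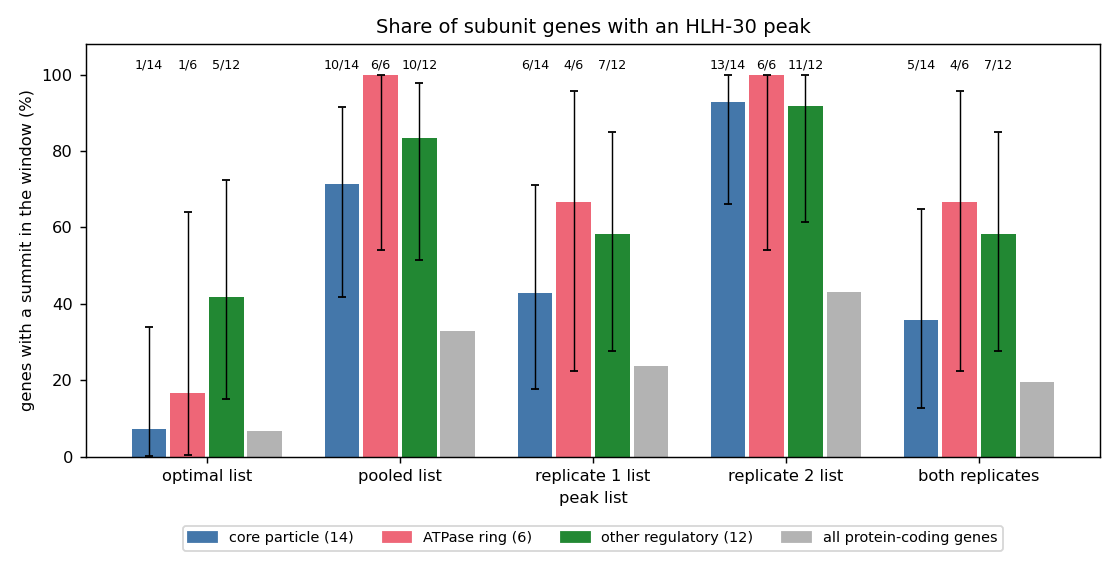
Share of genes (%, vertical axis) with a summit in the window around a start, for each peak list (horizontal axis). Coloured bars are the 3 classes of subunit genes with exact 95% binomial intervals and counts above, and grey bars are all protein-coding genes; in the optimal list 5 of 12 other regulatory genes have a peak, against 1 of 14 core genes.

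The bases under the summits of these 7 peaks are shown because the words counted next are absent from most of them. Each runs 50 bp to either side of the summit and read 5' to 3' on the strand of the subunit gene, from the RefSeq sequence of WBcel235 (ce11). An eighth sequence is that of rpt-1, whose strongest peak fell just short of the optimal list. Capitals mark matches, on either strand, to 5 words: the E-box CACGTG of this protein family, a related E-box with the letters CATGTG, the repeat word GAGAGA, a word that reads CGTCTC and a last word that reads ACGCAG. The core gene pbs-1 lies on the minus strand and its window is chrIV:1709911-1710011.
pbs-1: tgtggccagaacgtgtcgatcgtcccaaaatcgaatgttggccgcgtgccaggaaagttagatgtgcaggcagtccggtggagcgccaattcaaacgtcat
The ATPase genes rpt-1 and rpt-2, both on the minus strand, have the windows chrV:11982459-11982559 and chrV:6017798-6017898.
rpt-1: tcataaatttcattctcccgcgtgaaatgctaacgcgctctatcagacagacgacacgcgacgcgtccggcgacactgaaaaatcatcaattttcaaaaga
rpt-2: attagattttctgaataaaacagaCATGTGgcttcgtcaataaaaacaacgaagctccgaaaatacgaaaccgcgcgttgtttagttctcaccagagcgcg
The windows of rpn-3, on the plus strand, and rpn-13, on the minus strand, are chrIII:8447108-8447208 and chrIII:6342200-6342300.
rpn-3: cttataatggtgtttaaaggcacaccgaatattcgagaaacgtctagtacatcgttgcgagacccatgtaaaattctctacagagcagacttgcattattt
rpn-13: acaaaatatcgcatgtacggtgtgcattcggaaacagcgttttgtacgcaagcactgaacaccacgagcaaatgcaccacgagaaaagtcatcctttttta
Those of rpn-9 and rpn-11, on the minus strand, and rpn-12, on the plus strand, are chrII:11239105-11239205, chrII:4044528-4044628 and chrII:11652909-11653009.
rpn-9: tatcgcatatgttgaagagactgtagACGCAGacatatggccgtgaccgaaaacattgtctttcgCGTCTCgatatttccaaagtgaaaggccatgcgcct
rpn-11: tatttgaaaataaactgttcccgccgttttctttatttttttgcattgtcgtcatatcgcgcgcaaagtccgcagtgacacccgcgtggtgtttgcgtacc
rpn-12: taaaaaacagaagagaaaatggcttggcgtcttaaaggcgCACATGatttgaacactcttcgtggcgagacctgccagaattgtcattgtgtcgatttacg

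No optimal peak of a proteasome gene held CACGTG, the site of TFEB-family proteins, within 50 bp of its summit (0 of 7, which allows up to 41.0%), against 21.8% of all 1959 optimal peaks. It was absent from the whole interval of these 7 peaks as well. The related E-box CATGTG was under 2 of 7, those of rpt-2 and rpn-12, against 17.1% of all. In the rpt-2 sequence it starts 26 bp before the summit, and in that of rpn-12 it lies on the other strand, read as CACATG, and starts 10 bp before it. The rpn-9 sequence holds ACGCAG, which was under 20.5% of all optimal peaks, starting 24 bp before the summit. It also holds the word CGTCTC, under 22.7% of all, starting 15 bp after the summit. GAGAGA was under 0 of 7, against 30.02% of all. The 5 words were searched on both strands, and GAGAGA and the reverse complement of CGTCTC can overlap by 4 letters. At least 1 of the 5 lay under 3 of 7 member peaks (42.9%, interval 9.90 to 81.6%), against 71.2% of all. The words were chosen with earlier results of these data known, so the share over all peaks is not independent of that choice. Only 1065 of the 1959 optimal peaks lie in the window of any gene, as member peaks must, and the shares of all cover the rest too. No depletion at members is read from these counts.

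The larger pooled list, which its authors label as peaks and background, had 34 peaks at proteasome genes. Among these, CACGTG was under 1, that of rpn-10, which is 2.94% (interval 0.0744 to 15.3%) against 15.4% of all 18832 pooled peaks. At least 1 of the 5 words was under 7 of 34, 20.6% (8.70 to 37.9%), against 43.3%. Of all pooled peaks 6742 lie in the window of any gene, and the shares of all cover the others too. In replicate 1's own list the rpn-6.1 summit also had CACGTG within 50 bp, which the pooled summit did not. Over the whole window of the most upstream start, CACGTG was present in 4 of 32 members, pas-3, pas-5, pbs-3 and rpn-10 (12.5%), against 18.4% of all genes. CATGTG was in 11 of 32 windows (34.4%), against 32.9%, and GAGAGA in 17 of 32 (53.1%), against 50.9%. These are counts of letters, and none of these differences was tested.

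Among the core subunits pbs-1 alone reached the optimal list. It encodes a beta subunit of the kind that carries a protease site, and lies at IV, 1708814 to 1709745. Its optimal peak, at 1709789 to 1710132, had a signal of 49.7 and rank 1830 of 1959, with the summit 216 bp upstream of the start. Signals are the authors' own values against a control. The member peaks of the optimal list have the same signal and rank in the pooled list, so these lists share a scale, while each replicate's list has its own. Ranks count from the strongest peak of a list, and since the list of replicate 1 holds 11695 peaks and that of replicate 2 holds 30000, ranks in the replicates are given side by side and no change is read from them. In the replicates' own lists the strongest peak of pbs-1 had a signal of 12.3 and rank 4918 in replicate 1 and a signal of 36.0 and rank 1560 in replicate 2. Those places are 42.1% and 5.20% of the way down their lists. A further pbs-1 summit 904 bp upstream, in a coding exon, had a pooled signal of 42.5 and rank 2321.

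No other core gene reached the optimal list. The strongest of their peaks was at pas-4, an alpha subunit gene, with a pooled signal of 34.5 and rank 3330, 117 bp upstream of its start. It had rank 2993 in replicate 1 and 5164 in replicate 2, with summits 37 bp apart. Next was pbs-2, a beta subunit with a protease site, with a pooled signal of 28.2 and rank 4675. The pooled peaks of pas-1, pas-6, pas-7, pbs-3, pbs-4, pbs-6 and pbs-7 had best signals between 14.8 and 19.4, beside a median of 18.8 for the whole pooled list. By rank they were pbs-4 (8961), pas-7 (9169), pbs-3 (11740), pbs-6 (12144), pbs-7 (12818), pas-1 (12964) and pas-6 (14233). Only pbs-3 and pbs-4 among these 7 had a peak in replicate 1. In the pooled list pas-2, pas-3, pas-5 and pbs-5 had no peak, and each of them had peaks in only 1 replicate, at best rank 8575 of 11695 in replicate 1 for pas-2 and rank 13647 of 30000 in replicate 2 for pbs-5.

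**Figure D2:**
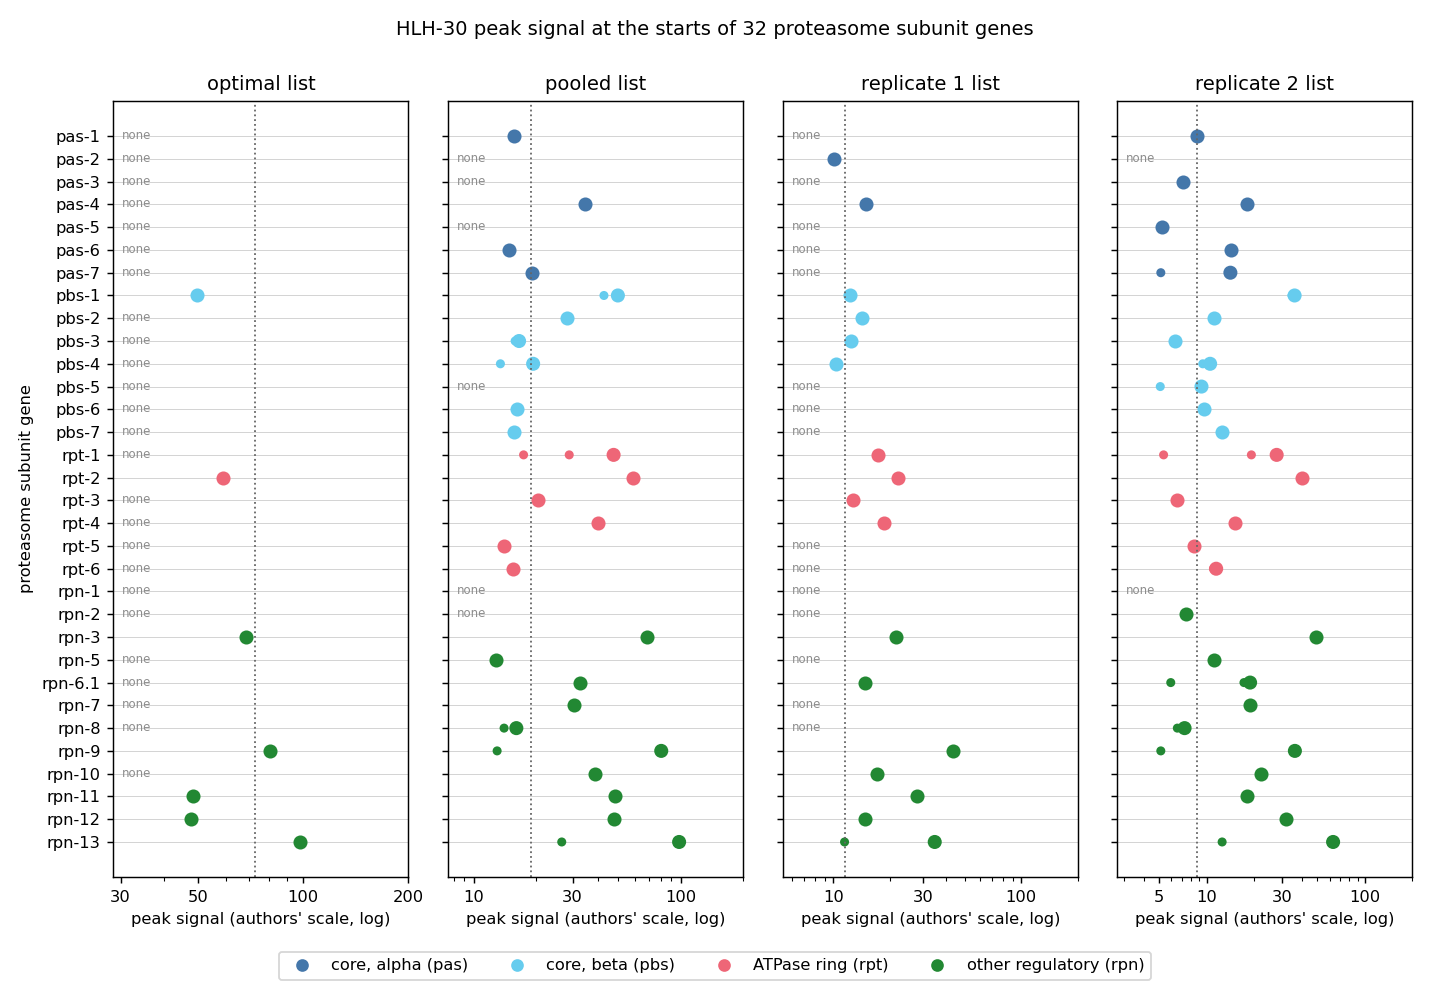
Peak signal (authors' scale, shared by the optimal and pooled lists and separate for each replicate; logarithmic horizontal axis) at each of the 32 genes (vertical axis, by role) in the 4 peak lists. Large points are a gene's strongest peak and small points further peaks, "none" marks a gene without a summit in the window, and the dotted line is the median of all peaks of that list; rpn-9 and rpn-13 alone among the members lie above it in the optimal list.

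In the ATPase ring all 6 genes had a pooled peak, and they spanned a wide range of ranks. The strongest was at rpt-2 (V, 6016059 to 6017669), with a signal of 59.0 and rank 1378 at 6017676 to 6018019. Its rank was 1424 in replicate 1, with a signal of 22.2, and 1319 in replicate 2, with a signal of 39.8, which is 12.2% of the way down the list of replicate 1 and 4.397% down that of replicate 2. Its summit lay 179 bp upstream of rpt-2, and nearer, 122 bp, to the start of aps-1, the gene on the other side of the intergenic region. The replicate 1 summit was likewise nearer to aps-1, at 110 bp, and the replicate 2 summit was nearer to rpt-2, at 145 bp. For rpt-1 (V, 11980534 to 11982397) the signal was 47.4 and the rank 1979, which is 20 ranks below the last peak of the optimal list. It had rank 2217 and signal 17.3 in replicate 1 and rank 2470 and signal 27.7 in replicate 2, with summits 5 bp apart.

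The other ATPase genes were lower. At rpt-4 the pooled signal was 39.9 with rank 2586, with rank 1898 in replicate 1 and 6928 in replicate 2. The peak lay in an intron, 189 bp from the start of a shorter rpt-4 transcript and 56 bp from that of nfyc-1. At rpt-3, rpt-6 and rpt-5 the best pooled signals were 20.5, 15.6 and 14.1, with ranks 8121, 13034 and 15426. The rpt-5 and rpt-6 genes had no peak in replicate 1.

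Among the other regulatory subunits, the strongest peaks of all 32 genes were found. The highest was at rpn-13 (III, 6340113 to 6341928), which encodes a ubiquitin receptor. Its optimal peak, at 6342078 to 6342421, had a signal of 98.1 and rank 595, and the rank was 653 in replicate 1, with a signal of 34.6, and 599 in replicate 2, with a signal of 63.0. Next was rpn-9 (II, 11237447 to 11238919), a lid subunit, with a signal of 80.4 and rank 826 at 11238983 to 11239326. It had rank 435 in replicate 1, with a signal of 43.1, and rank 1548 in replicate 2, with a signal of 36.1. Both lie above the median signal of the optimal list, 72.7, and the other 5 members lie below it.

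The peak of rpn-3 (III, 8447353 to 8449346), a lid subunit, had a signal of 68.5 and rank 1072, with rank 1491 and signal 21.5 in replicate 1 and rank 907 and signal 49.4 in replicate 2. It shares an intergenic region with hsp-110, which encodes a chaperone, and its summit in the optimal list was nearer to rpn-3, 195 bp from the start. The replicate 2 summit was also nearer to rpn-3, at 188 bp, but that of replicate 1 was 184 bp from hsp-110 and 260 bp from rpn-3. The peaks of rpn-11 and rpn-12 were close to the end of the optimal list. At rpn-11 (II, 4043055 to 4044546), the deubiquitinase of the particle, the signal was 48.3 and the rank 1922, with rank 947 and signal 27.7 in replicate 1 and rank 5172 and signal 18.1 in replicate 2. At rpn-12 (II, 11653124 to 11654192), a lid subunit, the signal was 47.7 and the rank 1957, which is 2 ranks inside the list, with rank 3143 and signal 14.7 in replicate 1 and rank 1917 and signal 31.8 in replicate 2. Of these, rpn-11 was among the 1959 strongest peaks of replicate 1 only and rpn-12 among those of replicate 2 only.

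Below the optimal list, rpn-10, another ubiquitin receptor gene, had the strongest peak of this class, with a pooled signal of 38.3 and rank 2773. It lay in a coding exon 328 bp upstream of the annotated start, and the summits of the replicates were 6 bp apart. The lid subunit genes rpn-6.1 and rpn-7 had pooled signals of 32.4 and 30.6, with ranks 3691 and 4070. The rpn-6.1 summit was in an intron, 383 bp downstream of the nearer of the gene's annotated starts and upstream of another. Weak pooled peaks were at rpn-8, a lid subunit, with 16.1 and rank 12368, and rpn-5, another, with 12.8 and rank 18155. The lowest signal of the pooled list is 12.5. In replicate 1 the genes rpn-5, rpn-7 and rpn-8 had no peak. The large scaffold subunits rpn-1 and rpn-2 had no pooled peak. For rpn-1 no list held a summit in the window, and for rpn-2 the only summit was of rank 18023 in replicate 2.

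Beyond the optimal list, peaks at proteasome genes were common. The pooled list is labelled by its authors as peaks and background, so a summit in it need not mark binding. In the pooled list of 18832 peaks 26 of 32 members had a peak, 81.2% (interval 63.6 to 92.8%), against 33% of all genes. They were 10 of 14 core, 6 of 6 ATPase and 10 of 12 other regulatory genes. When a pooled peak counted only for the gene with the nearest start, 18 of 32 members had one, against 27.5% of all genes. A member's start was the nearest for 21 of the 34 pooled peaks. In the list of replicate 1, of 11695 peaks, 17 of 32 members had one, 53.1%, against 23.7% of all genes. In that of replicate 2, of 30000 peaks, 30 of 32 had one, 93.8%, against 43.1%. Both replicates had one at 16 of 32, 50% (interval 31.9 to 68.1%), against 19.4%, and at 15 of 32 the summits lay within 100 bp of each other, against 14.7% of all genes. The gene with a peak in both but none within that distance was pbs-3, whose summits were 779 bp apart. By role the matched peaks were at 4 of 14 core, 4 of 6 ATPase and 7 of 12 other regulatory genes.

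With genes without a peak counted as 0, the median best signal in the pooled list was 19.2 over the 32 members. It was 35.4 over other regulatory subunits, 30.2 over the ATPase ring and 15.97 over the core. The median over all protein-coding genes is 0, since most of them have no pooled peak, and 20.3% of all genes reached the members' median. In replicate 1 the medians were 14.8 for other regulatory, 14.98 for ATPase and 0 for core genes, and in replicate 2 they were 18.8, 13.3 and 10.1 in the same order. The core thus had the lowest median in these 3 lists, and the order of the other classes differed between the replicates.

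For the 16 members with a peak in both replicate lists, the ranks of the strongest peaks had a Spearman's rho of 0.62 across genes, which share both libraries and are not replicates. At pbs-3, pbs-4 and rpn-6.1 the strongest peaks of the replicates were at different sites, so rho partly compares unlike peaks. The peaks of rpt-2, rpn-3, rpn-9 and rpn-13 were among the 1959 strongest of each replicate. Those of rpt-4 and rpn-11 were so only in replicate 1, and those of pbs-1 and rpn-12 only in replicate 2. The other 24 were in neither.

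**Figure D3:**
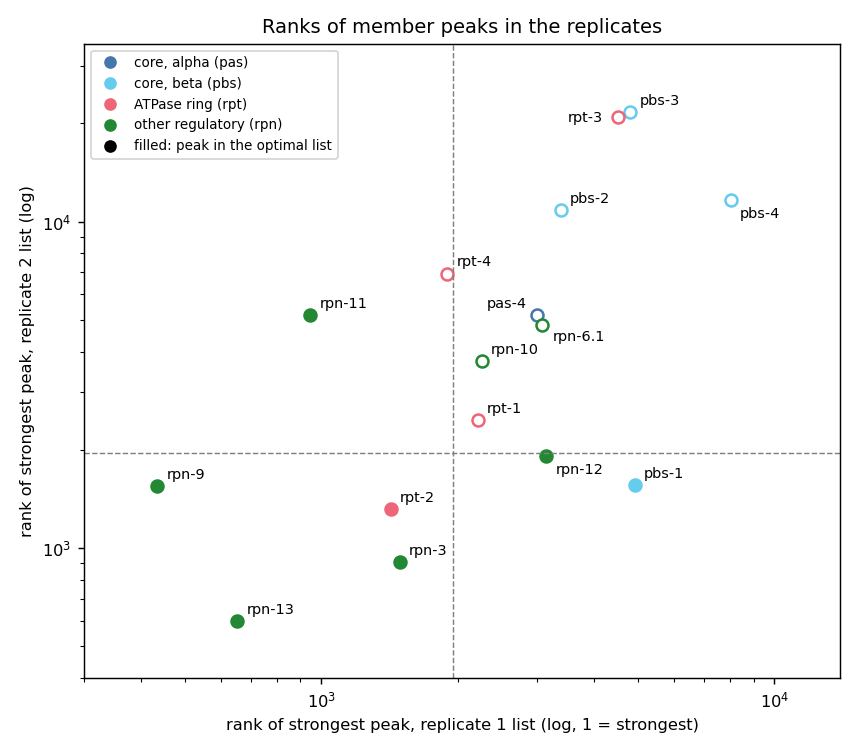
Rank of the strongest peak in replicate 1 (horizontal) against replicate 2 (vertical), both logarithmic, for the 16 members with a peak in both lists. At pbs-3, pbs-4 and rpn-6.1 the ranks belong to peaks at different sites. Filled points have a peak in the optimal list and dashed lines mark rank 1959; rpt-2, rpn-3, rpn-9 and rpn-13 lie inside both lines, and rpn-11 and pbs-1 lie on opposite sides.

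All 7 optimal peaks lay upstream of the start, in intergenic sequence. Their summits were 32 to 322 bp upstream, with a median of 195 bp, and 7 of 7 were within 500 bp upstream, against 69.6% of all 1324 genes with an optimal peak. Of all optimal summits 65.5% were intergenic. In the pooled list the strongest summit of 19 of 26 members (73.1%) was within 500 bp upstream, against 59.5% of all 6598 genes with one. Of the 34 pooled summits at members 21 were intergenic, against 44.0% of all pooled summits. A further 8 lay in coding exons, against 21.0%, 3 in 3' UTRs, against 2.82%, and 2 in introns, against 29.6%. The shares of all optimal and of all pooled summits in this paragraph include summits far from any start, and the members' counts do not. Starts are those annotated, which for many worm genes are sites of trans-splicing, so the distance to the site where transcription begins may differ. No optimal member summit was within 200 bp of a tRNA, snoRNA, snRNA, miRNA or rRNA gene, against 9.19% of all 1959 optimal summits. The count of 0 of 7 allows a share of up to 41.0%, so no difference is read from it. None of the 34 pooled member summits was that close either, but the share of all pooled summits was not counted.

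**Figure D4:**
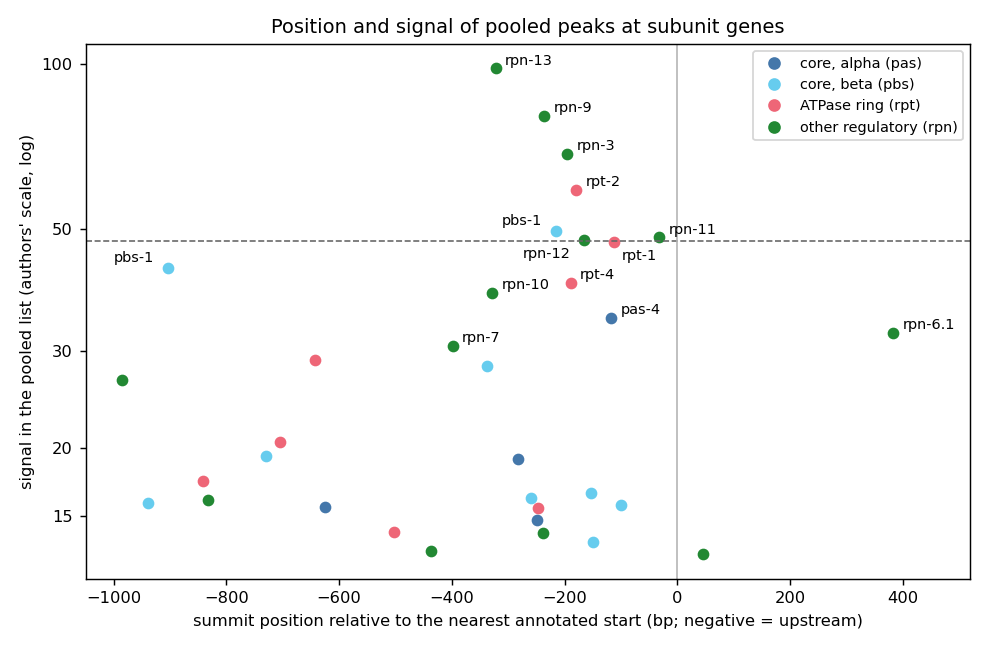
Position of each of the 34 pooled summits relative to the nearest annotated start (bp, negative upstream, horizontal) and signal in the pooled list (logarithmic, vertical), coloured by role. The dashed line is the lowest signal of the optimal list, 47.7; every summit above it lies between 322 and 32 bp upstream of a start.

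Most peaks at proteasome genes lay within reach of a neighbour's start as well. The nearest gene upstream was on the opposite strand for 23 of 32 members (71.9%), against 46.2% of all genes, and the median distance to it was 444 bp, against 1179 bp for all genes with such a neighbour. Of the 7 optimal peaks 5 were also in the window of another gene, against 27.2% of the 1065 optimal peaks in the window of any gene. The neighbours were K08D12.3 beside pbs-1, aps-1 beside rpt-2, hsp-110 beside rpn-3, T06D8.9 beside rpn-9 and rad-23 beside rpn-12. The peaks of rpn-11 and rpn-13 were in no other gene's window. The member's start was the nearest for 6 of the 7, all but rpt-2. Among members with an opposite-strand neighbour 5 of 23 had an optimal peak, against 9.17% of all such genes, and among those with a neighbour on the same strand 2 of 9 did, against 4.45%. In the pooled list 21 of 34 member peaks fell in another gene's window, against 17.3% of the 6742 pooled peaks in any window. Besides those above, the neighbours at core genes were rpoa-12 (pas-1), rpb-3 (pas-4), CD4.11 (pas-6), puf-12 (pas-7), rpi-2 (the further pbs-1 peak), eif-6 (pbs-2), cids-1 (pbs-6) and F39H11.1 (pbs-7). At regulatory genes they were nfyc-1 (rpt-4), rad-8 (rpt-5), scc-1 (rpn-5), F57B9.1 (rpn-6.1), F49C12.9 (rpn-7), and R12E2.11 and mrps-6 (rpn-8). The rpn-7 summit was 18 bp from the start of F49C12.9 and 398 bp from that of rpn-7.

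Genes that act with the proteasome were read from a list of 26. Beside the 21.9% of subunit genes with an optimal peak, 7 of these 26 had one, 26.9% (interval 11.6 to 47.8%), and 6.63% of all genes did. The strongest was at ubq-1, the polyubiquitin gene, with a signal of 239 and rank 125. It was followed by cdc-48.1, an ATPase that extracts ubiquitin-marked proteins, at 173, ubql-1, a ubiquilin that shuttles substrates, at 155, and aip-1, an arsenite-inducible gene, at 144. Then came ecps-1 at 107, wdr-23, which encodes a subunit of a ubiquitin ligase, at 69.3, and rad-23, a substrate shuttle, at 47.7. The first 5 of these exceeded the highest subunit gene, rpn-13. The rad-23 peak is the same as that of rpn-12, since these genes start 395 bp apart on opposite strands. The ecps-1 summit was only 58 bp from the start of atx-2. A paralogue of rpn-6.1, rpn-6.2, had a pooled peak of signal 47.4 and rank 1969, which holds CACGTG. The pooled peaks of ufd-2 (rank 3299) and ufd-1 (rank 8585), from the same list of 26, hold it too. CACGTG was under 15.4% of all pooled peaks. In the pooled list 19 of the 26 had a peak, against 33% of all genes.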

How the data were processed

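Chromatin immunoprecipitated with anti-GFP from late embryos was sequenced in 2 biological replicates, per the labels. The files used are narrowPeak lists in build ce11. Per the deposited file descriptions, each replicate list was made from that replicate's alignments and a control, the pooled list from both, and the optimal list by irreproducible discovery rate (IDR). The pooled list is labelled as peaks and background given as input to IDR. The sources used here do not give the aligner, peak caller, filters or the IDR threshold. Column 7 holds the authors' signal per peak, whose scaling by depth is not given. The authors' −log10 q-value column has an upper limit that most optimal peaks share and was not used for ranking. Read depth is unknown, and list lengths differ, with 11695 peaks in replicate 1 and 30000 in replicate 2. Lists in build ce10 were not used here.

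Summits (start plus the deposited offset) were assigned to coding-transcript starts of Ensembl release 115 on WBcel235, the same assembly as ce11. A gene's strongest peak was described and peaks were ranked by signal within a list. Exact (Clopper-Pearson) 95% intervals cover the counting of genes or peaks only. With a single group there is no contrast between conditions, and no test was run. The subunit genes, the list of 26 and the words searched were chosen with earlier results of these data known. All 32 members are described. Other genes are named where they share a member's optimal or pooled peak, or belong to the list of 26 and have an optimal peak. The genes atx-2, rpn-6.2, ufd-1 and ufd-2 were chosen after their values were seen. Assignment and word search were tested on simulated data. Python 3.11.15, numpy 2.4.6, pandas 2.3.3 and scipy 1.17.1 were used.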

Additional observations from a re-analysis of the deposited data

How the results depend on the processing

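Alternatives changed the list, the window, the assignment, the matching of replicate summits or the span searched for words. Counts are given as kept when within 1.5 times. The median distance is given as kept when within the standard deviation of the replicates' medians. Of 52 alternative values for the main counts and the median distance, 37 were kept, among them CACGTG counts of 0 beside 0. The total of 7 members was 6 without either replicate. It was 7 with a narrower window and 10 with a wider one, 6 with the nearest start only and 8 with any base of the peak in the window, against 4.96%, 9.12%, 5.08% and 7.21% of all genes in that order. Among the optimal peaks above the median signal 2 members remained, rpn-9 and rpn-13, against 3.61% of all genes, and by role 0 core, 0 ATPase and 2 other regulatory. In the whole pooled list the counts were 26 in all (against 33% of all genes), 10, 6 and 10, and 19 of the 26 other pathway genes. Without a replicate the core count was 0 to 1 and the ATPase count 1 to 2. The ATPase count was 2 with a wider window and 0 with the nearest start only, since the rpt-2 peak then goes to aps-1. With both replicate lists shortened to 1959 peaks, 4 members had a peak in each, against 4.83% of all genes. Of the 8 alternatives, the pooled list, the wider window and the any-base rule cannot lose a gene by construction. Besides the peaks under the median signal, rpn-11 was lost without replicate 1, pbs-1 and rpn-12 without replicate 2, and rpt-2 with the nearest start only. GTCAT, a word chosen after the sequences were seen, was under 4 of 7 member peaks within 50 bp and 1 within 25 bp. No paired analysis was possible because the samples form a single group. Unknown depth and list lengths that differ between replicates limit what the shares in whole lists show.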

Other observations

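The word GTCAT was noticed in the sequences shown and then counted, on either strand, up to 50 bp from summits. It is only part of the site known for the worm transcription factor SKN-1, and the whole site was not searched. GTCAT was under 4 of the 7 optimal peaks of subunit genes, those of pbs-1, rpn-11, rpn-12 and rpn-13. Within 25 bp of the summit it was under 1. Its share was 21.2% of all optimal peaks and 20% of those in the window of any gene. The word was picked from these same sequences, so its count in them cannot be weighed against those shares. In the pooled list, which holds the same 7 peaks, it was under 8 of 34 member peaks, against 19.2% of all. A count of 5-letter words in few peaks says nothing of which protein is bound there, and no test was made.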
